A study of Mus musculus with 12 samples.

Results

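The genes described here are 48 interferon-stimulated genes of the antiviral type, chosen by symbol from a list of cytosolic sensors, antiviral effector proteins, ISG15-pathway enzymes and PARP proteins. The choice was by symbol and not by a measured value, but it was made with earlier results of these data known. The gene table held 47 of the 48 symbols among its 19434 genes, and Helz2 was not analysed here. A filter on low counts kept 46 of the 47. Oas1g did not pass it and is described by its counts only.

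Interferons are secreted proteins that cells release on sensing infection. Type I interferons act through a receptor on nearly all cells, and signalling through the kinases JAK1 and TYK2 then leads to binding at the interferon-stimulated response element in the promoters of antiviral genes. Type II interferon, the product of Ifng, is made mainly by T cells and NK cells and acts through its own receptor on a partly shared set of genes.

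The RNA came from lung CD4+ T cells of male and female C57BL/6NJ mice. Mice aspirated either 2800000 CFU of E. coli or PBS at day 5 of life (neonatal) or at day 15 (juvenile), and the lungs were taken 48 h later. A magnetic bead step enriched CD4+ T cells before flow sorting. Each library held the pooled cells of 3 neonatal or 2 juvenile mice, with 3 libraries in each of 4 groups. Those that aspirated E. coli are called infected neonates and infected juveniles below, and the controls PBS neonates and PBS juveniles. The labels name no genetic change in any group, and n is the number of pools throughout, so the spread between single mice was not measured.

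The 12 libraries held between 6035445 and 8129983 counts. A gene without counts could still have stood at up to 3 counts, which is 0.374 to 0.494 CPM (counts scaled per 1000000 of the library total) depending on the library. Summed T cell markers were at 3345 to 4370.5 CPM in every library, with Cd4 at 1133 ± 87.5, 1086 ± 16.1, 1298 ± 50.9 and 1082 ± 49.6 CPM (SD, n = 3) in PBS neonates, infected neonates, PBS juveniles and infected juveniles. Neonatal PBS library 1 and juvenile PBS library 2 stood apart from their groups in immature T cell transcripts, at 581 and 363 CPM against 133 to 180.1 and 80.7 to 105 CPM in the other libraries of those groups. The tests of the chosen genes were therefore also run without both, while other counts, such as those of pathway and marker genes, were not taken again. Transcripts listed as markers of other cells were present. Summed dendritic cell markers were at 45.1 to 61.6 CPM in PBS neonates, 60.2 to 76.7 in infected neonates, 90.5 to 111 in PBS juveniles and 196 to 272 CPM in infected juveniles.

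Many interferon-stimulated genes carry the response element close to their start. The response element was searched on both strands as GAAA, any 2 bases and a second GAAA. It lay within 250 bases before to 50 bases after a start in 14 of the 34 tested genes with a promoter in RefSeq (41.2%), and in 3.99% of all 27018 genes with one. The looser motif GAAANNGAA, found wherever the first is, was in 17 of the 34 and in 9.76% of all. A match is a description of these letters, not a binding site. Shown are the 160 bases before the RefSeq start (GRCm38.p6, 5′ to 3′ on the strand of the gene) of 7 genes whose response to infection is given below, with matches of the first motif on either strand in capitals. They were chosen to show repeated matches (Isg15, Ifit1, Ifit3 and Bst2), single ones (Rsad2 and Oas3) and the promoter of Ifitm2, the 1 gene of the 46 that rose in neonates.
Isg15, chr4:156200819-156200978, minus strand: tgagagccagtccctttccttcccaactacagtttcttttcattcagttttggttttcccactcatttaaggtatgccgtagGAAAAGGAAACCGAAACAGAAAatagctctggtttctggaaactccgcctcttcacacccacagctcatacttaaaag
Ifit1, chr19:34640729-34640888, plus strand: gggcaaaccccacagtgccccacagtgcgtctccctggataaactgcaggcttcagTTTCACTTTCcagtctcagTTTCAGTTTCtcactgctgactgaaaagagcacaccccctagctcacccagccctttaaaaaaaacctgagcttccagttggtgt
Ifit3, chr19:34583369-34583528, plus strand: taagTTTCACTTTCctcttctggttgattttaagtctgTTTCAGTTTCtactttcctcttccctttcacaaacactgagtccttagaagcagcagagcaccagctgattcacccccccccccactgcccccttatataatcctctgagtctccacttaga
Rsad2, chr12:26456453-26456612, minus strand: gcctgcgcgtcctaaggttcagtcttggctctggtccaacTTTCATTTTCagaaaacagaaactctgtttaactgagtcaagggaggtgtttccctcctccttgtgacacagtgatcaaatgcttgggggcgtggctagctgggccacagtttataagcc
Oas3, chr5:120777660-120777819, minus strand: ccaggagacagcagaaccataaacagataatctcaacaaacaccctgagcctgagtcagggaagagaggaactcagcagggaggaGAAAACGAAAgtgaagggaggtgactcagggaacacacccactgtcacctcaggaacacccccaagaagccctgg
Bst2, chr8:71537473-71537632, minus strand: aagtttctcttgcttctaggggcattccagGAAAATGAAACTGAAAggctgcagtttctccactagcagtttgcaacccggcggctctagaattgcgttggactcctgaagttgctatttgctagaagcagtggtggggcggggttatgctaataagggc
Ifitm2, chr7:140955962-140956121, minus strand: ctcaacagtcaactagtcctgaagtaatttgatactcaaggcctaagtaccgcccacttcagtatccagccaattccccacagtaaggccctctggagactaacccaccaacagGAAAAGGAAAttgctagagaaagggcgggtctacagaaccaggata

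The first question was whether these genes responded to E. coli at each age. In juvenile mice 43 of the 46 tested genes rose and none fell (edgeR quasi-likelihood test, Benjamini-Hochberg adjusted p under 0.05 over 11062 genes), where 15.4% of all tested genes rose and 9.42% fell. None was lower at an unadjusted p under 0.05, or with DESeq2 or limma voom. The rise was at least 2-fold for 31 of them (7.55% of all tested genes) and at least 4-fold for 13, a size not counted over all tested genes. In 42 of the 46 genes all 3 juvenile E. coli libraries lay above all 3 juvenile PBS libraries, a pattern found in 20.6% of all tested genes. The median log2 fold change was 1.30 over the 46 genes and -0.01 over all tested genes. The low-count filter kept 46 genes in a fit of only the juvenile groups, but 43 with only the neonatal or only the PBS groups. Some genes thus passed it with infected juveniles among the libraries, but not in those narrower fits. Without a rise they might not have been counted. Of the 43 calls, those of Ifit2, Adar, Trim21 and Ifi27l2a were lost when any of 10, 9, 9 and 7 of the 12 libraries, in that order, was left out in turn.

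In neonatal mice 1 of the 46 genes rose, Ifitm2, and none fell, where 1.05% of all tested genes rose and 0.145% fell. At an unadjusted p under 0.05, 3 genes were higher and 2 lower, which is 10.9% of the genes against 12% of all tested genes. Of the other tools DESeq2 called 0 lower and limma voom 1 (Samhd1). Fold changes were positive for 21 genes and negative for 25, with a median log2 fold change of -0.02 and -0.003 over all tested genes. All 3 neonatal E. coli libraries lay above all 3 neonatal PBS libraries for 5 genes (11.2% of all tested genes) and below them for 8 (10.6%).

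The test of the difference between the responses, an interaction term of age and exposure, passed for 30 of the 46 genes, each with the larger response in juveniles, where 5.05% of all tested genes passed in that direction and 1.94% in the other. The juvenile fold change exceeded the neonatal one in 45 of 46 genes, against 48.6% of all tested genes, and the exception was Ifitm2. Without the 2 PBS libraries high in immature T cell transcripts, 42 genes rose in juveniles, 1 in neonates, and 26 differed between the ages. Over all tested genes, calls in either direction were then 3175, 116 and 1109, in that order. In pooled cells, a change in how many cells express a gene and a change in RNA per cell cannot be told apart.

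**Figure D1:**
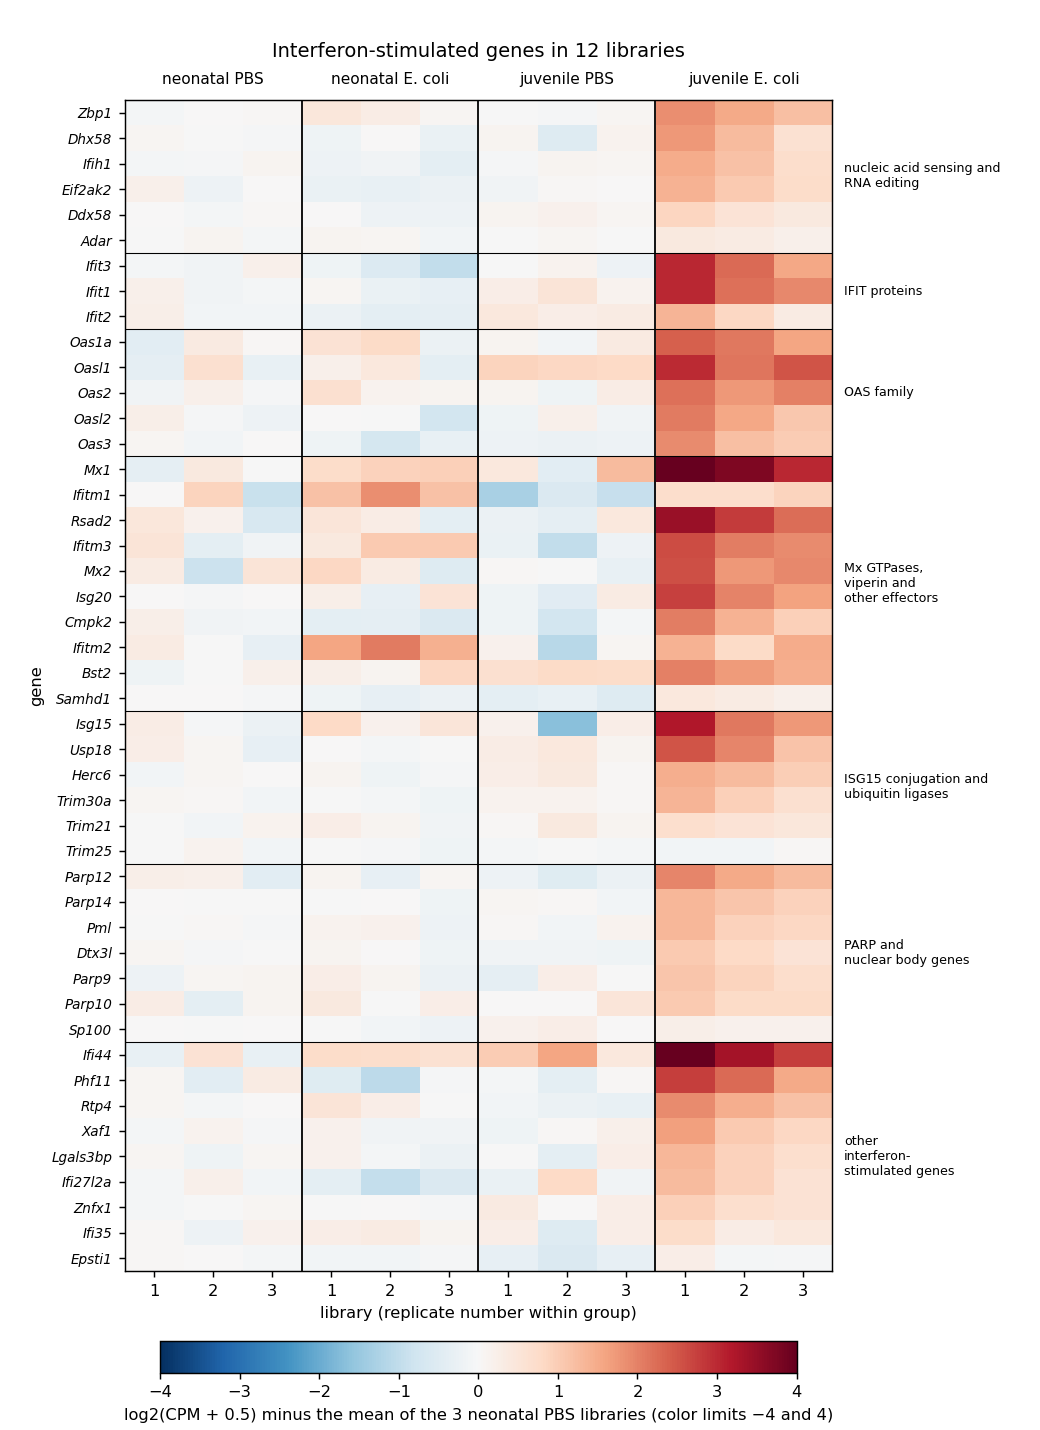
Level of the 46 tested genes in each of the 12 libraries, as log2(CPM + 0.5) minus the mean of the 3 neonatal PBS libraries, with genes in rows by role and libraries in columns by group. Red fills most rows of the 3 juvenile E. coli columns, while the other 9 columns are near white for most genes, and Ifitm2 is red in both infected groups.

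**Figure D2:**
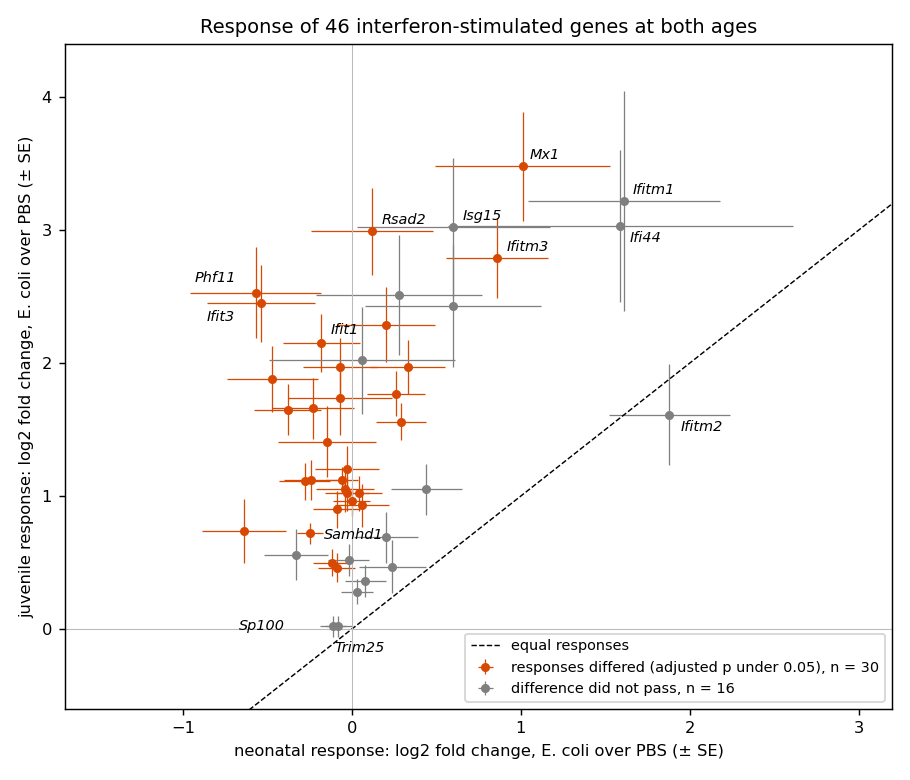
Log2 fold change of E. coli over PBS in neonatal mice (horizontal axis) and in juvenile mice (vertical axis) for the 46 tested genes, with bars for the standard error and the dashed line for equal responses. Points in orange are the 30 genes whose responses differed at an adjusted p under 0.05, and Ifitm2 is the gene under the line.

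Among the sensors, all 6 tested genes rose in juveniles and none of the 6 passed the test in neonates. Ifih1 encodes MDA5, a cytosolic sensor of long double-stranded RNA. Its level was 60.1, 61.0 and 67.9 CPM in the neonatal PBS libraries, 54.8, 57.1 and 47.9 in infected neonates, 60.5, 67.6 and 66.0 in PBS juveniles, and 178, 141 and 103 CPM in infected juveniles. Every juvenile E. coli library was above all 9 others, which span 47.9 to 67.9 CPM. The juvenile log2 fold change was 1.12 ± 0.15 (SE; adjusted p = 9.03e-05, edgeR), the neonatal one -0.24 ± 0.16 (adjusted p = 0.612), and their difference 1.36 ± 0.22 (adjusted p = 0.0024).

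Eif2ak2 encodes PKR, the kinase that halts translation on binding double-stranded RNA. It was at 64.5 ± 9.24 CPM in PBS neonates, 53.1 ± 1.58 in infected neonates, 63.0 ± 4.64 in PBS juveniles and 136 ± 30.7 CPM in infected juveniles (SD, n = 3). The juvenile response was 1.11 ± 0.14 and the neonatal one -0.28 ± 0.15 on the log2 scale, a difference of 1.39 ± 0.21 (adjusted p = 0.00154, edgeR). Zbp1, a sensor of left-handed nucleic acids, was at 213, 168 and 133 CPM in infected juveniles and at 55.2 to 78.9 CPM in the other 9. Its juvenile log2 fold change was 1.56 ± 0.14 and its neonatal one 0.29 ± 0.15, with a difference of 1.27 ± 0.20 (adjusted p = 0.00246, edgeR). Ddx58, which encodes the sensor RIG-I, started higher, at 163 to 193 CPM in PBS libraries, and rose by 0.50 ± 0.10 in juveniles (adjusted p = 0.00279). Adar, an enzyme that edits adenosine in double-stranded RNA, had the smallest passing rise among all 46 genes, 0.28 ± 0.094 (adjusted p = 0.0385). That call was lost when any of 9 of the 12 libraries was left out in turn (adjusted p = 0.0586 to 0.191), with upper-quartile scaling, with no filter and with only the groups compared. Of its exon bases, 16.8% overlap Chrnb2 on the other strand, which counts without strand cannot separate.

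The IFIT proteins bind foreign RNA that lacks host cap marks. All 3 genes passed in juveniles, though the call of Ifit2 did not hold in most other fits. Ifit1 (chr19:34640871-34650009, plus strand, GRCm38) was at 50.1, 39.3 and 41.2 CPM in PBS neonates and at 45.4, 35.9 and 34.1 CPM in infected neonates, so these groups overlapped. In juveniles it was at 52.6, 61.6 and 47.7 CPM after PBS and at 350.3, 200.3 and 166.0 CPM after E. coli. The juvenile groups did not overlap, and the mean rose 4.43-fold (log2 fold change 2.15 ± 0.22, adjusted p = 1.03e-05, edgeR). The difference between the ages was 2.32 ± 0.32 (adjusted p = 0.0012).

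Ifit3 was at 15.9, 15.3 and 19.6 CPM in PBS neonates, 15.1, 11.2 and 8.35 in infected neonates, 16.7, 18.6 and 14.7 in PBS juveniles, and 139, 83.7 and 49.8 CPM in infected juveniles. All 3 neonatal E. coli libraries lay below all 3 neonatal PBS libraries, but the neonatal fold change did not pass the test (-0.54 ± 0.32, adjusted p = 0.566). The juvenile response was 2.45 ± 0.29 and the difference between the ages 2.99 ± 0.43 on the log2 scale (adjusted p = 0.00137, edgeR). Ifit2 responded less in juveniles, by 0.56 ± 0.19 (adjusted p = 0.0392), with overlapping groups of 73.0 to 81.0 CPM after PBS and 75.9 to 156 CPM after E. coli. This call was lost when any of 10 of the 12 libraries was left out in turn (adjusted p = 0.051 to 0.309), with upper-quartile scaling, with only the groups compared, and without both libraries high in immature T cell transcripts. Its difference between the ages, 0.89 ± 0.27, did not pass (adjusted p = 0.0592).

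The oligoadenylate synthetases make the second messenger that activates RNase L on sensing double-stranded RNA. All 5 tested genes of the family rose in juveniles, by log2 fold changes of 1.65 to 2.43, and the neonatal values of -0.38 to 0.60 did not pass. Oas3 was at 43.7, 38.3 and 42.5 CPM in PBS neonates, 36.6, 25.4 and 33.8 in infected neonates, 35.9, 34.9 and 35.9 in PBS juveniles, and 155, 95 and 84.4 CPM in infected juveniles. Its difference between the ages was 2.03 ± 0.27 (adjusted p = 0.00114, edgeR). Oasl2, which encodes an OAS-like protein, was at 25.3 to 50.4 CPM in the other 9 libraries and at 182, 125 and 89.7 CPM in infected juveniles. Oas1a and Oasl1, both under 2 CPM in every PBS library, had differences between the ages of 1.83 ± 0.71 and 1.95 ± 0.70, which exceeded their errors but did not pass after adjustment (adjusted p = 0.139 and 0.109, edgeR). Oas1g, a near-identical copy of Oas1a, had no counts in any PBS library, 3 counts over the neonatal E. coli libraries and 12 over the juvenile E. coli libraries. Juvenile E. coli library 2 had 0 counts of it. The mean of the infected juveniles, 0.505 CPM, was 1.08-fold a floor of 3 counts in each juvenile PBS library, with no allowance for its own counting error. Reads may be split between the 2 copies.

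Effector genes included the largest juvenile response. Mx1 encodes a GTPase that blocks influenza virus, and C57BL/6 mice carry a defective copy of the gene that is still transcribed. It was at 1.04, 2.08 and 1.47 CPM in PBS neonates, 2.81, 3.24 and 3.31 in infected neonates, 2.16, 0.989 and 4.30 in PBS juveniles, and 42.1, 26.0 and 15.5 CPM in infected juveniles. The 3 neonatal E. coli libraries lay above the 3 neonatal PBS libraries, but that fold change did not pass (1.01 ± 0.52, adjusted p = 0.485). The mean rose 11.1-fold in juveniles (3.48 ± 0.41, adjusted p = 2.52e-05, edgeR). The difference between the ages, 2.47 ± 0.70, had an adjusted p of 0.0444. It did not pass when any of 9 of the 12 libraries was left out in turn (adjusted p = 0.062 to 0.149 in edgeR), which were all 6 neonatal libraries, juvenile PBS library 1 and juvenile E. coli libraries 1 and 2. Without both libraries high in immature T cell transcripts it was 2.33 (adjusted p = 0.0579).

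Rsad2 encodes viperin, an enzyme that makes a chain-terminating nucleotide, and Cmpk2 encodes a nucleotide kinase that supplies it. Rsad2 was at 12, 9.72 and 5.39 CPM in PBS neonates, 12.3, 10.7 and 6.48 in infected neonates, 7.20, 6.59 and 11.8 in PBS juveniles, and 98.3, 63.1 and 42.1 CPM in infected juveniles. The 9 libraries of the first 3 groups shared 1 range, up to 12.3 CPM, and every juvenile E. coli library was above it. The juvenile response was 2.99 ± 0.33 and the difference between the ages 2.88 ± 0.49 on the log2 scale (adjusted p = 0.00324, edgeR). Cmpk2 rose by 1.88 ± 0.25 in juveniles, with a difference of 2.35 ± 0.37 (adjusted p = 0.00221). Isg20, an exonuclease that degrades RNA, was at 10.2 to 21 CPM in the other 9 libraries and at 96.8, 56.9 and 44.4 CPM in infected juveniles, with a difference of 2.09 ± 0.40 (adjusted p = 0.0069). Bst2 encodes tetherin, which holds budding virions at the cell surface and is also a marker of mouse plasmacytoid dendritic cells. It rose by 1.05 ± 0.19 in juveniles (adjusted p = 0.00109), and its difference between the ages, 0.60 ± 0.29, did not pass (adjusted p = 0.234).

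Samhd1 encodes a phosphohydrolase that depletes the nucleotides used by retroviruses. Its level per length was the highest of the 46 genes apart from Phf11, which had no length in the annotation used. That level was 187 ± 4.73 CPM per kilobase of exon in PBS neonates. Samhd1 was at 1734, 1743 and 1664 CPM in PBS neonates, 1511, 1375 and 1441 in infected neonates, 1310, 1388 and 1205 in PBS juveniles, and 2312, 2153 and 1961 CPM in infected juveniles. The neonatal groups did not overlap and the infected one was lower (-0.25 ± 0.077), without passing the test (adjusted p = 0.173, edgeR). The juvenile groups did not overlap in the opposite direction, and the rise passed (0.72 ± 0.078, adjusted p = 1.43e-05). The difference between the ages was 0.97 ± 0.11 (adjusted p = 0.000612).

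The IFITM proteins, which block virus entry at membranes, did not move as one group. Ifitm2 (chr7:140954837-140955987, minus strand, GRCm38) was at 3.12, 2.36 and 1.8 CPM in PBS neonates, 8.04, 11.7 and 7.20 in infected neonates, 2.74, 0.824 and 2.55 in PBS juveniles, and 7.04, 4.42 and 7.5 CPM in infected juveniles. Both infected groups lay above the PBS groups of their age without overlap. It rose 3.68-fold in neonates (1.88 ± 0.36, adjusted p = 0.0148, edgeR) and 3.06-fold in juveniles (1.61 ± 0.38, adjusted p = 0.00592). The difference between the ages was -0.27 ± 0.53 (adjusted p = 0.817). Without neonatal E. coli library 2 the neonatal call was lost (1.65, adjusted p = 0.103), as it was without neonatal PBS library 2 (1.86, adjusted p = 0.0748) or 3 (1.72, adjusted p = 0.0728).

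Ifitm1 and Ifitm3 have sequences close to that of Ifitm2, among which reads may be split, and 40.9% of the exon bases of Ifitm2 are shared with Gm45717 on the same strand. Ifitm3 was at 8.48, 4.31 and 5.23 CPM in PBS neonates, 7.79, 12.5 and 12.5 in infected neonates, 4.75, 2.64 and 4.94 in PBS juveniles, and 38.1, 25.3 and 22.7 CPM in infected juveniles. Its neonatal fold change was 0.86 ± 0.30 (adjusted p = 0.233, edgeR), and its juvenile rise of 2.79 ± 0.30 was larger by 1.93 ± 0.43 (adjusted p = 0.0148). That difference did not pass without neonatal PBS library 1 (1.56, adjusted p = 0.0664) or without both libraries high in immature T cell transcripts (1.37, adjusted p = 0.0564). Ifitm1 was at 2.30, 3.99 and 2.30 CPM in infected neonates and at 1.51, 1.52 and 1.78 CPM in infected juveniles, so it was higher in the infected neonates than in the infected juveniles in every library, without passing the test (-0.83 ± 0.52, adjusted p = 0.303). The 3 juvenile PBS libraries held 3 counts of Ifitm1 in all and the juvenile E. coli libraries 37, a ratio of 10.3 with a 95% counting interval of 3.26 to 52.3. Of the neutrophil markers 3 of the 4 tested genes rose at each age, where 1.05% of all tested genes rose in neonates and 15.4% in juveniles. Summed, these markers were at 10.3, 53.7 and 16.3 CPM in infected neonates, 22.6, 18.5 and 9.28 in infected juveniles, and 0.33 to 4.03 CPM in the 6 PBS libraries. Neonatal E. coli library 2 was the highest of its group for these markers, for Ifitm1 and for Ifitm2. Their part in the Ifitm values was not tested.

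**Figure D3:**
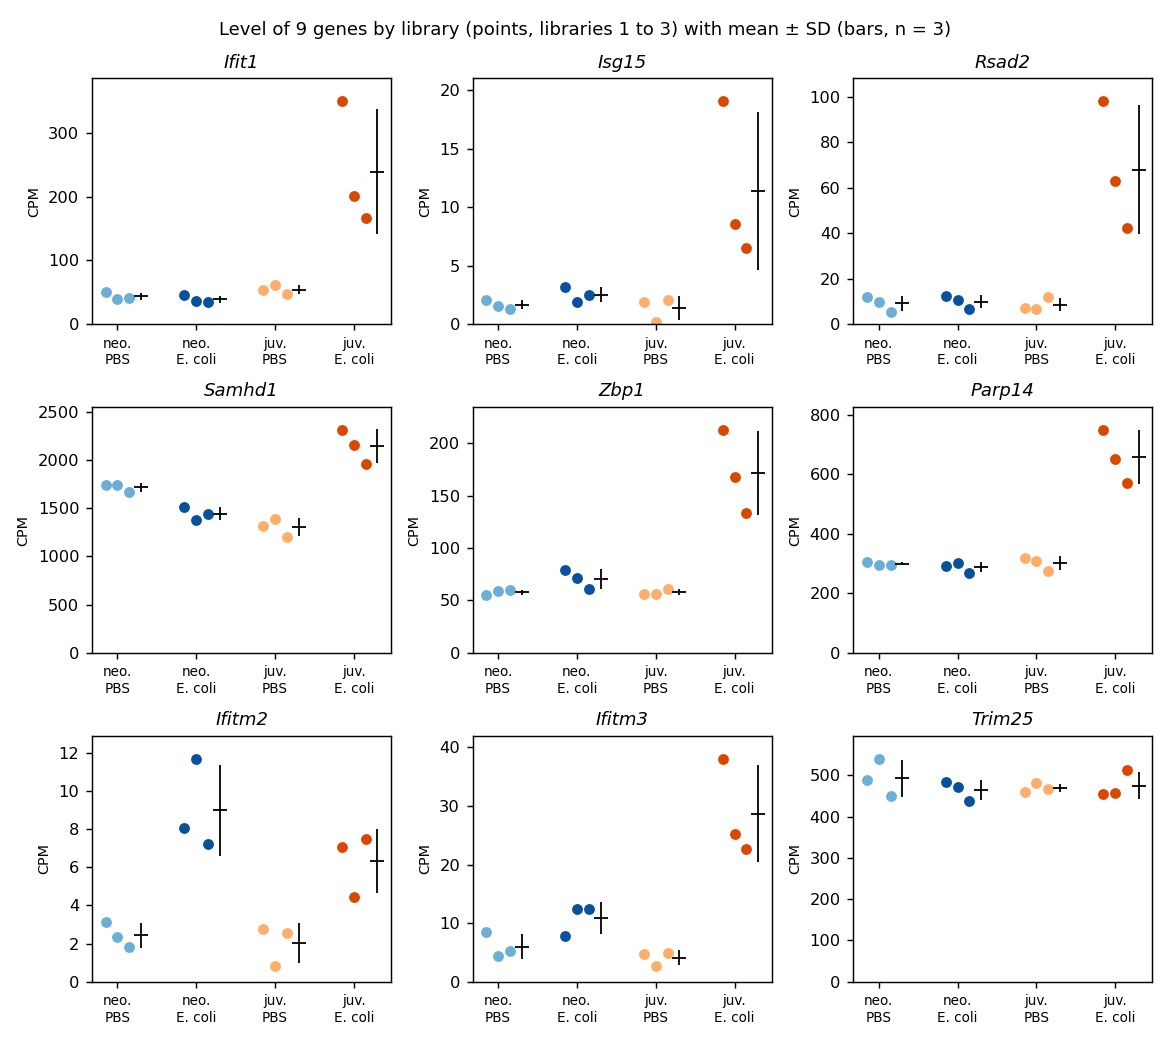
Level in CPM (vertical axes, from 0) of 9 genes in each library, with points for libraries 1 to 3 of each group and bars for mean ± SD (n = 3). Juvenile E. coli libraries stand above all others for Ifit1, Isg15, Rsad2, Samhd1, Zbp1, Parp14 and Ifitm3, both infected groups stand above PBS for Ifitm2, and the groups overlap for Trim25.

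ISG15 is a ubiquitin-like protein that is attached to other proteins by Herc6 in mice and removed by Usp18, which also dampens the type I receptor. Isg15 was at 2.08, 1.53 and 1.31 CPM in PBS neonates, 3.19, 1.87 and 2.45 in infected neonates, 1.87, 0.165 and 2.07 in PBS juveniles, and 19.1, 8.56 and 6.48 CPM in infected juveniles. All 3 juvenile E. coli libraries were above the other 9, and the juvenile rise was 8.11-fold (3.02 ± 0.52, adjusted p = 0.000665, edgeR). The lowest value, in juvenile PBS library 2, rests on 1 count. The difference between the ages, 2.42 ± 0.79, did not pass (adjusted p = 0.0804).

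Herc6 was more even across libraries, at 51.7 to 75.6 CPM in the 9 libraries outside the juvenile E. coli group and at 159, 141 and 115 CPM within it. Its response was 1.02 ± 0.13 in juveniles and -0.03 ± 0.13 in neonates, a difference of 1.05 ± 0.18 (adjusted p = 0.00333, edgeR). Usp18 rose by 1.74 ± 0.28 in juveniles and its difference between the ages was 1.81 ± 0.42 (adjusted p = 0.0174), which did not pass without neonatal PBS library 1 (1.64, adjusted p = 0.068). Trim30a, a member of the TRIM family of ubiquitin ligases, rose by 0.90 ± 0.14, with a difference of 1.0 ± 0.19 (adjusted p = 0.00669). Trim25, the ligase that acts on RIG-I, was at 438 to 541 CPM over all 12 libraries, with log2 fold changes of 0.02 ± 0.081 in juveniles (adjusted p = 0.914) and -0.08 ± 0.081 in neonates (adjusted p = 0.778).

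Of the 7 PARP and nuclear body genes, 6 rose in juveniles and 0 passed in neonates. Parp14, which encodes an ADP-ribosyltransferase, was at 306, 296 and 296 CPM in PBS neonates, 293, 302 and 268 in infected neonates, 319.7, 308 and 276 in PBS juveniles, and 749.9, 651 and 569 CPM in infected juveniles. The first 3 groups overlapped, and the juvenile rise was 2.18-fold (1.12 ± 0.096, adjusted p = 2.13e-06, edgeR). Its difference between the ages, 1.18 ± 0.14, had an adjusted p of 0.000612, equal to that of Samhd1 and the smallest among the 46 genes. Parp12, of the same enzyme family, was at 7.25 to 8.79 CPM in PBS juveniles and rose by 1.97 ± 0.22 after infection, with a difference of 2.04 ± 0.31 (adjusted p = 0.00192).

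Parp9 and its partner ligase Dtx3l are neighbours on opposite strands that share 458 exon bases, so some of their reads cannot be told apart. Dtx3l was at 312 to 383 CPM in the other 9 libraries and at 722, 607 and 519 CPM in infected juveniles (juvenile response 0.96 ± 0.11, adjusted p = 1.69e-05, edgeR). Sp100, a scaffold of nuclear bodies, was at 1054, 1026 and 1052 CPM in PBS neonates, 1032, 961 and 901 in infected neonates, 1186, 1262 and 1055 in PBS juveniles, and 1222, 1168 and 1173 CPM in infected juveniles. The groups of each age overlapped, and the juvenile fold change was 0.02 ± 0.077 (adjusted p = 0.854).

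Of the 9 remaining genes, 8 rose in juveniles. Phf11, which encodes a zinc finger protein of a family with near-identical copies, had the largest difference between the ages. It was at 4.76, 3.19 and 5.72 CPM in PBS neonates, 3.06, 1.87 and 4.32 in infected neonates, 4.18, 3.3 and 4.62 in PBS juveniles, and 33.3, 23.3 and 13.5 CPM in infected juveniles. The difference was 3.09 ± 0.52 on the log2 scale (adjusted p = 0.00291, edgeR). Rtp4, which encodes a transmembrane chaperone, was at 23.4 to 41.5 CPM in the other 9 libraries and at 109, 80.4 and 66.5 CPM in infected juveniles (difference 1.5 ± 0.24, adjusted p = 0.00259). Lgals3bp, which encodes a secreted galectin-binding glycoprotein, rose by 1.05 ± 0.17 in juveniles (adjusted p = 0.000432). Ifi35 did not pass at either age (0.47 ± 0.20, adjusted p = 0.103 in juveniles and 0.24 ± 0.20, adjusted p = 0.726 in neonates). Ifi44 had 3 counts over the neonatal PBS libraries and 11 over the neonatal E. coli libraries, a ratio of 3.22 with a 95% counting interval of 0.852 to 18.0. In juveniles it rose from 0.319 to 1.32 CPM after PBS to 3.69 to 10.2 CPM after E. coli (3.03 ± 0.57, adjusted p = 0.00124).

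**Figure D4:**
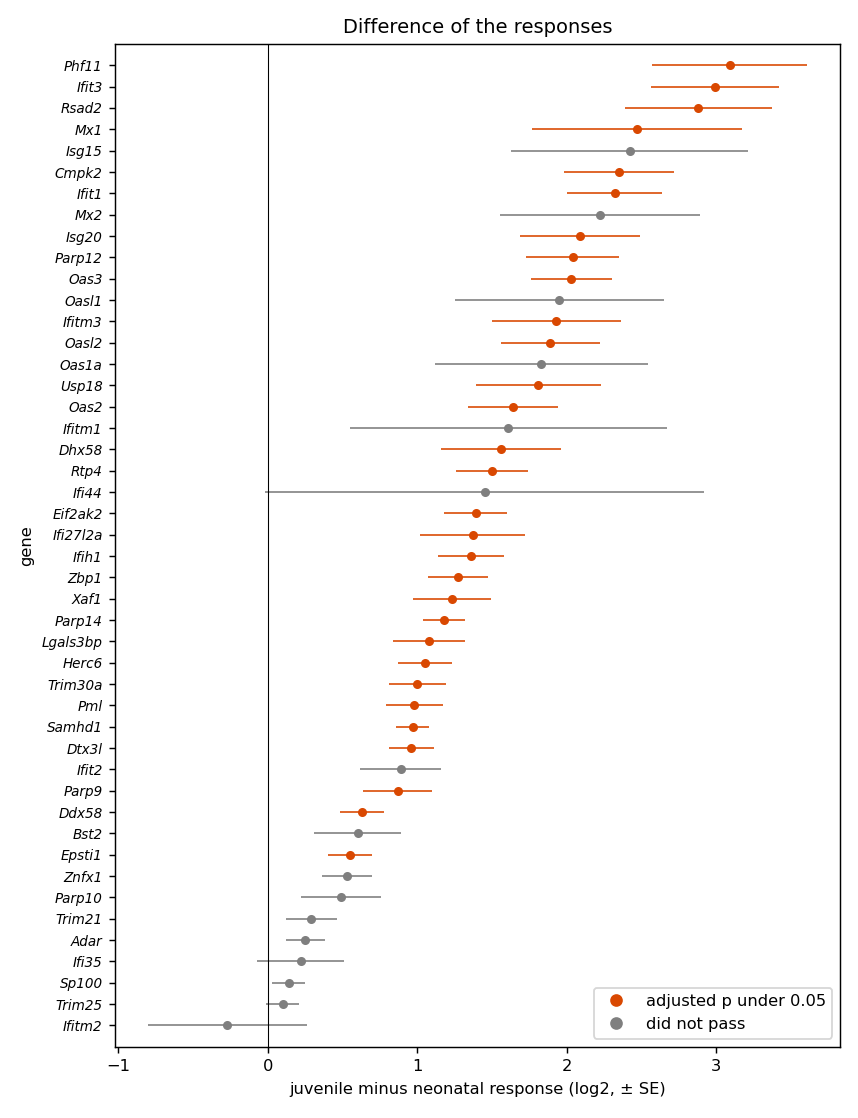
Juvenile minus neonatal response of the 46 tested genes on the log2 scale (horizontal axis, bars for the standard error), ordered by size from Phf11 at 3.09 to Ifitm2 at -0.27. Orange points passed at an adjusted p under 0.05, and several genes with large differences and few counts, among them Isg15, Mx2 and Oas1a, did not.

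Juvenile responses were smaller for genes with a higher starting level. Across the 46 genes, the log2 level in PBS neonates and the juvenile log2 fold change had a Spearman correlation of -0.79 and a Pearson correlation of -0.78, against -0.10 and -0.22 across all 11062 tested genes. These points are genes of the same libraries and are not independent, and the neonatal PBS libraries were used because they do not enter the juvenile fold change. A gene with a low start and no rise could also have failed the low-count filter, which would leave it out of the correlation. The 23 genes with the higher starting level had a median juvenile log2 fold change of 0.93 and the 23 with the lower level one of 2.02. Among genes with a promoter in RefSeq, the median was 1.63 for the 14 with the response element and 1.02 for those without. Of all tested genes with a promoter, 31.3% of the 332 with the element rose in juveniles and 14.4% of those without. The 332 include the 14 chosen genes with the element, and the shares without the chosen genes were not taken.

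The ages were next compared within each exposure. These comparisons share their libraries with the responses above and are given beside them. After PBS, 2 of the 46 genes were lower in juveniles than in neonates and none was higher, where 2.32% of all tested genes were lower and 1.75% higher. At an unadjusted p under 0.05, 3 were lower and 2 higher, which is 10.9% of the genes against 17.8% of all tested genes. DESeq2 called 1 gene higher (Bst2) and limma voom 0. The 2 genes were Samhd1 (-0.40 ± 0.078, adjusted p = 0.00886, edgeR) and Epsti1 (-0.40 ± 0.11, adjusted p = 0.0475). Epsti1 was at 102, 97.9 and 93.1 CPM in PBS neonates and at 78.2, 65.6 and 77.6 CPM in PBS juveniles, with no overlap. The Samhd1 call was lost without neonatal PBS library 1 (-0.36, adjusted p = 0.0676) or 2 (-0.36, adjusted p = 0.0513), and the Epsti1 call when any of 10 of the 12 libraries was left out in turn (adjusted p = 0.0536 to 0.197). Epsti1 also did not pass without both libraries high in immature T cell transcripts (-0.29, adjusted p = 0.195), with RLE or upper-quartile scaling, with no filter, or with only the groups compared. Bst2 was at 8.03, 9.03 and 10.5 CPM in PBS neonates and at 14.4, 16.0 and 15.5 CPM in PBS juveniles, a difference of 0.74 ± 0.21 that did not pass (adjusted p = 0.0655).

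After E. coli, 40 of the 46 genes were higher in juveniles and none was lower, where 11.3% of all tested genes were higher and 6.42% lower. None was lower at an unadjusted p under 0.05 or with DESeq2, and limma voom called 1 lower (Ifitm2). The median log2 difference was 1.31 over the 46 genes and -0.02 over all tested genes. Parp14 (1.19 ± 0.096, adjusted p = 1.26e-06, edgeR), Ifit1 (2.63 ± 0.23, adjusted p = 1.97e-06) and Herc6 (1.28 ± 0.13, adjusted p = 6.14e-06) had the smallest p-values. The 6 genes that did not pass were Adar, Epsti1, Ifi35, Trim25, Ifitm1 and Ifitm2. Sp100, whose juvenile response did not pass, was higher in infected juveniles than in infected neonates (0.30 ± 0.077, adjusted p = 0.0139, edgeR), but not without juvenile E. coli library 1 or neonatal E. coli library 2 or 3 (adjusted p = 0.0606 to 0.0681).

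Libraries of the infected juveniles differed in the size of the rise. The median of the 46 genes over the juvenile PBS mean, on the scale of log2(CPM + 0.5), was 1.63, 1.12 and 0.84 in juvenile E. coli libraries 1, 2 and 3, and 0.12, -0.02 and -0.16 over the neonatal PBS mean in neonatal E. coli libraries 1, 2 and 3. Juvenile E. coli library 1 was the highest of its group for 43 of the 46 genes, where it was so for 35.2% of all tested genes. Without it 37 genes rose in juveniles, with a median log2 fold change of 1.03, and 24 differed between the ages. Calls over all tested genes, in either direction, were then 1799 for the juvenile response and 368 for the difference. With all 12 libraries they were 1705 higher and 1042 lower, and 559 higher and 215 lower, in that order. The lowest of the 3 infected juvenile libraries still lay above every infected neonatal library in the median of the 46 genes per library.

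**Figure D5:**
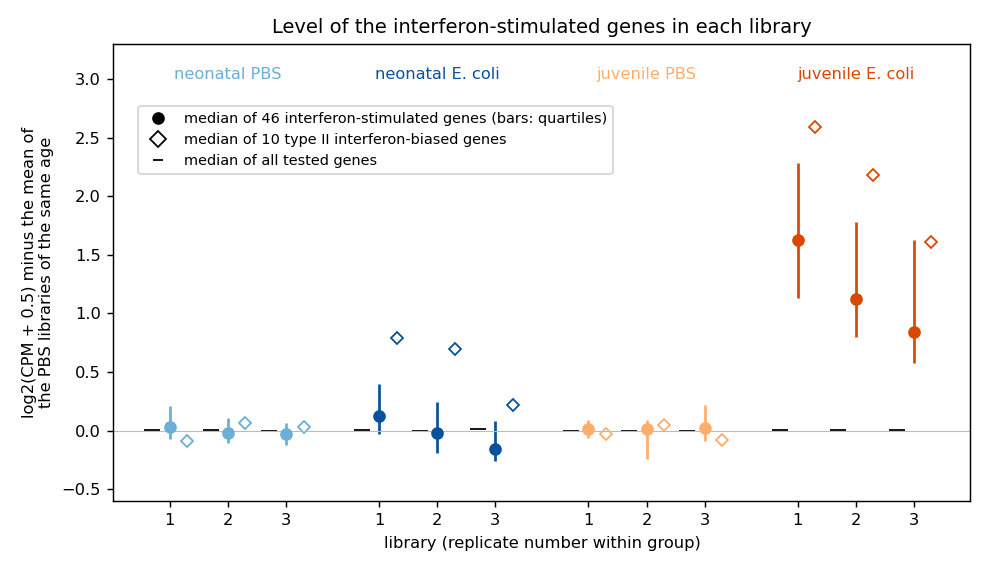
Median of the 46 interferon-stimulated genes (filled points, bars for the quartiles), of 10 type II interferon-biased genes (open diamonds) and of all tested genes (dashes) in each library, as log2(CPM + 0.5) minus the mean of the PBS libraries of the same age. Both gene groups are highest in juvenile E. coli library 1, and in infected neonates the diamonds lie at 0.22 to 0.79 while the filled points lie at -0.16 to 0.12.

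The rest of the pathway was followed in a list of 59 genes, of which 55 were in the table and 43 were tested. In juveniles 25 of the 43 rose and 2 fell, and in neonates 3 rose and none fell. The response differed between the ages for 13, each larger in juveniles. Over all tested genes, 15.4% rose and 9.42% fell in juveniles, and 1.05% rose and 0.145% fell in neonates. The difference passed for 5.05% of them with the larger response in juveniles and for 1.94% in the other direction. Of the 13 interferon genes in the table, 9 of the type I genes, Ifnb1 among them, had no count in any library. Ifna13 had 3 counts, Ifnz 2 and Ifnk 66 over all 12 libraries, too few to test. Ifng was at 3.68 ± 0.313 CPM in PBS neonates, 5.17 ± 1.30 in infected neonates, 5.05 ± 1.40 in PBS juveniles and 42.4 ± 15.9 CPM in infected juveniles (SD, n = 3). It rose by 3.08 ± 0.28 in juveniles (adjusted p = 3.04e-06, edgeR), and by 2.60 ± 0.44 more than in neonates (adjusted p = 0.00318).

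The receptor subunit Ifnar1 was at 217 to 235 CPM in the means of all 4 groups, and Ifnar2 rose in juveniles by 0.41 ± 0.078 (adjusted p = 0.00135, edgeR). Among the signal transducers, Stat2 rose in juveniles by 1.54 ± 0.14 (adjusted p = 3.45e-06, edgeR) and Irf9 by 0.38 ± 0.10 (adjusted p = 0.0143). Jak2 rose by 0.72 ± 0.090 and Jak1 fell by 0.31 ± 0.068 in juveniles (adjusted p = 4.08e-05 and 0.00398). None of these passed in neonates. The 3 genes that rose in neonates were Irf1, a transcription factor induced by either type of interferon (0.99 ± 0.20, adjusted p = 0.0262), Socs3, a cytokine feedback inhibitor (2.38 ± 0.22, adjusted p = 0.000222), and Irgm2, an immunity-related GTPase (0.66 ± 0.12, adjusted p = 0.0109). For Socs3 the juvenile response was 2.44 ± 0.23, and the difference of 0.06 ± 0.32 did not pass (adjusted p = 0.943).

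Of 10 genes listed as biased to type II interferon, all 10 rose in juveniles and 1 (Irgm2) rose in neonates. The responses of 8 differed between the ages, each larger in juveniles. Shares over all tested genes were 15.4%, 1.05% and 5.05%, in that order. Cxcl9, a chemokine named for its induction by interferon gamma, was at 0.444 ± 0.276 CPM in PBS neonates, 1.83 ± 0.736 in infected neonates, 0.207 ± 0.245 in PBS juveniles and 29.2 ± 11.4 CPM in infected juveniles. The guanylate-binding protein gene Gbp2 was at 88.9 ± 1.64, 108 ± 19.7, 74.3 ± 8.03 and 331 ± 111 CPM in the same order of groups. The median log2 fold change of the 10 genes was 2.18 in juveniles and 0.61 in neonates, beside 1.30 and -0.02 for the 46 antiviral genes. No test compared the lists. Because many antiviral genes answer to both types of interferon, neither the count of 43 nor the medians of the lists tell the types apart, at either age.

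Listed markers of several other cell types, but not of all, moved in the same direction as the juvenile response. Over all tested genes, 15.4% rose and 9.42% fell in juveniles. The lists are short, and no test compared them with these shares. From juvenile PBS to juvenile E. coli libraries, summed monocyte and macrophage markers went from 297 to 483 CPM to 768 to 1126 CPM (8 of 12 tested genes rose and 1 fell), and MHC class II genes from 184 to 318 CPM to 443 to 538 CPM (4 of 5 tested genes rose). Within the monocyte and macrophage list, Ccr2 alone went from 127 ± 6.36 to 404 ± 34.1 CPM, where the mean sum went from 391 to 923 CPM. Of the dendritic cell markers 3 of the 8 tested genes rose, while Zbtb46, Cd209a and Ccl22 had negative juvenile log2 fold changes that did not pass (-0.19, -0.26 and -0.65). Siglech, a marker of the plasmacytoid dendritic cells that make type I interferon, was at 24.4 ± 6.33, 40.0 ± 8.2, 54.7 ± 8.22 and 175 ± 34.2 CPM in PBS neonates, infected neonates, PBS juveniles and infected juveniles. It made up most of the mean dendritic cell sum in juveniles, which went from 99.4 to 238 CPM. In neonates these sums were 217 to 377 CPM after PBS and 296 to 529 CPM after E. coli for monocytes and macrophages, and 94.6 to 151 and 133 to 162 CPM for MHC class II. Of the 6 T cell markers tested, 4 fell in juveniles, with log2 fold changes of -0.76 to -0.21 over the 6. Of the 7 NK cell and innate lymphoid cell markers, Klra8 had no count in any library, 1 of the 5 tested rose in juveniles (Nkg7, 1.68 ± 0.19, adjusted p = 1.89e-05, edgeR), and the sum went from 77.5 to 107 CPM after PBS to 152 to 169 CPM after E. coli without overlap. Most of that sum was Il1rl1, at 69.1 ± 13.1 and 118 ± 13.1 CPM, whose juvenile response did not pass (adjusted p = 0.0857, edgeR). Of the endothelial markers 4 of the 6 tested rose and 1 fell (Pecam1), but their sum overlapped, at 228 to 244 CPM after PBS and 226 to 248 CPM after E. coli. Of the lung epithelial markers 2 of 6 rose, with sums of 35.8 to 42.1 and 91.2 to 206 CPM. None of the 6 B cell or the 6 fibroblast and smooth muscle markers tested passed. Within the infected juveniles, library 1 was the highest in neutrophil markers (22.6 against 18.5 and 9.28 CPM) and B cell markers (51.3 against 27.1 and 39.1 CPM), and library 2 in dendritic cell, monocyte and macrophage, and MHC class II markers. Which cells made the listed transcripts, Ccr2 and Il1rl1 among them, was not measured. The part of other cells in the result was not tested.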

How the data were processed

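RNA was converted to cDNA with a Nugen Ovation kit that does not mark strand and sequenced as paired 100-base reads on an Illumina HiSeq instrument, per the labels' protocols. CASAVA 1.8.4, STAR and the builds GRCm38 and mm10 are named in the submitters' processing notes, with no role or order. The authors deposited raw counts per gene for 12 libraries, and for the counting neither the settings nor the gene annotation are stated in the labels or the file.

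The deposited counts were fitted with edgeR 4.0.16 in R 4.3.3 (quasi-likelihood test, TMM scaling, 1 model of the 4 groups). The filterByExpr filter with a minimum of 10 counts kept 11062 genes, holding 99.9% of counts, and p-values were adjusted by the Benjamini-Hochberg method over all of them at a threshold of 0.05. CPM values use the TMM-scaled library totals, SD is over 3 libraries, and SE is the standard error of a log2 fold change derived from the F statistic. Ratios resting on 3 or fewer counts carry exact 95% intervals, which cover counting error only. The scripts were tested on simulated data. No 2 libraries of a group agreed within sampling noise (chi-square per degree of freedom of 4.00 to 20.7). Alternatives were DESeq2 1.42.0, limma 3.58.1 (voom with sample weights), RLE or upper-quartile scaling, no filter, a replicate block, leaving out libraries and fitting only the groups compared. Positions and exon overlaps are from GENCODE M21 on GRCm38, and promoter sequences from RefSeq (GRCm38.p6).

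The genes and lists were chosen with earlier results of these data known. Genes named with values were, in each role, the 2 with the highest level and the 2 with the smallest p for the difference of the responses, every gene with no passing juvenile response, and up to 8 genes per contrast that passed without overlap in the neonates or between the ages. Isg15, Usp18, Mx1, Rsad2, Bst2, Ifitm1, Ifitm3, Oas1a, Oas1g, Oasl1, Ifi44 and the printed promoters were chosen after their values were seen. The values of 1 pathway gene, and of 1 motif searched, are not reported here.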

Additional observations from a re-analysis of the deposited data

Results flagged for a closer look

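For 30 genes the response to E. coli differed between juvenile and neonatal mice by the interaction test (edgeR, adjusted p under 0.05). Each value below is the juvenile minus the neonatal log2 fold change, and all of them were higher in juveniles. The sensor genes were Dhx58 at 1.56, Eif2ak2 at 1.39, Ifih1 at 1.36, Zbp1 at 1.27 and Ddx58 at 0.63. Of the IFIT genes, Ifit3 was at 2.99 and Ifit1 at 2.32. The OAS genes were Oas3 at 2.03, Oasl2 at 1.89 and Oas2 at 1.64. The effector genes were Rsad2 at 2.88, Mx1 at 2.47, Cmpk2 at 2.35, Isg20 at 2.09, Ifitm3 at 1.93 and Samhd1 at 0.97. The genes of ISG15 and ubiquitin conjugation were Usp18 at 1.81, Herc6 at 1.05 and Trim30a at 1.0. The PARP and nuclear body genes were Parp12 at 2.04, Parp14 at 1.18, Pml at 0.98, Dtx3l at 0.96 and Parp9 at 0.87. Among the other genes, Phf11 was at 3.09, Rtp4 at 1.5, Ifi27l2a at 1.37, Xaf1 at 1.23, Lgals3bp at 1.08 and Epsti1 at 0.55. When libraries were left out in turn, the call was lost without any of 9 of the 12 libraries for Mx1 and Epsti1, 8 for Dhx58, Parp9 and Ifi27l2a, and 4 for Ddx58, and without 1 library for Ifitm3, Usp18 and Lgals3bp.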

How the results depend on the processing

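No alternative reversed a called gene. The juvenile count of 43 genes was 39 to 43 under the other settings and 37 to 43 when 1 library was left out. The 30 genes that differed between the ages were 26 to 34 and 22 to 33, the lowest without neonatal PBS library 1, and the 40 genes higher in infected juveniles were 36 to 41 when 1 library was left out. The 1 gene that rose in neonates was 0 to 1 when 1 library was left out. The count of 0 lower in neonates became 1 with limma voom (Samhd1) and 2 with only the groups compared (Samhd1 and Ifi27l2a). After PBS, the count of 0 higher in juveniles became 1 with DESeq2 and 1 with no filter (Bst2), and was 0 to 1 when 1 library was left out. The 2 genes lower in juveniles after PBS became 1 with RLE scaling, upper-quartile scaling, no filter, only the groups compared, and both libraries high in immature T cell transcripts left out, and were 0 to 2 when 1 library was left out. After E. coli the count of 0 lower in juveniles became 1 with limma voom (Ifitm2). The cause of these changes was not tested. With the replicate number as a block the counts were 1 gene higher in neonates, 42 in juveniles and 30 for the difference, with the call of Mx1 lost (adjusted p = 0.0694, edgeR) and that of Ifit2 gained. The labels do not say that the numbers mark a shared litter or day. Libraries of the same number had correlations of -0.176 to 0.223 in their deviations from the group means, over 0.1 in 2 of 18 pairs, which cannot settle whether one was shared. Genes under about 2 CPM in PBS libraries rest on few counts, and their differences between the ages have wide errors.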
